A study of Mus musculus with 4 samples.

Results

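The RNA of cultured mouse prefrontal cortex (PFC) was examined here for 36 genes of glycolysis, lactate exchange and glucose handling. They form a list of gene symbols whose rule uses no measured value, though the list was written with earlier results of these data known. Each symbol was matched through GENCODE M21 to an Ensembl identifier of the mm10 count tables, and the 36 genes are part of 55421 that the tables list. The symbol Aldoa has a further identifier, ENSMUSG00000114515, so that 37 identifiers carry these symbols. The PFC of wild-type C57BL/6 mice was taken on postnatal day 0, dissociated, and kept for 10 days in neurobasal medium with B27 and GlutaMAX. FGF2 was added at 5 ng/mL to the treatment group and left out of the other, and each group holds 2 bulk RNA-seq libraries. The cells were not sorted by type, and the libraries of a group are not stated to come from separate cultures, so that the p-values below may measure technical spread only. The counts on genes lay between 9166432 and 10799886 per library, and levels are given as CPM, the counts scaled to a common library total after TMM adjustment. A count of 0 allows up to 3 counts, or 0.278 to 0.327 CPM depending on depth, for counting error alone.

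Glycolysis splits glucose into pyruvate, which is either reduced to lactate in the cytosol or oxidised by pyruvate dehydrogenase in the mitochondrion. Most steps are run by families of related enzymes, and in the brain some of these forms are concentrated in neurons and others in glia. Astrocytes store glycogen and are known to release lactate, while neurons take up glucose and lactate through high-affinity transporters.

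With FGF2 the list moved in both directions. Of the 35 genes with enough counts for a test, 12 were higher, where 20.7% of all tested genes were, and 10 were lower, where 19.9% were (edgeR quasi-likelihood test, adjusted p-value threshold of 0.05). The remaining 13 did not pass the threshold. The called genes made up 62.9% of the list, against 40.5% of the 17144 genes tested. These shares were not matched for expression level, and the smallest called change on the list was 0.14 log2 units. Of the 35 genes, 16 had an absolute log2 fold change under 0.2, and 2 called genes, Hk2 and Pdk4, had one over 1, as 7.6% of all tested genes did. The median log2 fold change, given throughout as FGF2 over no FGF2, was -0.03 for the list and -0.0008 over all tested genes. The libraries of the groups did not overlap for 27 of the 36 genes, 13 of which were above with FGF2 and 14 below, where 33.6% and 33.4% of all tested genes were. Summed over the list, the level was 5112 and 5094 CPM with FGF2 and 5184 and 5130 CPM without FGF2. The 14 glycolytic enzymes from Hk1 to Pkm summed to 3016 and 2983 CPM with FGF2 and to 3233 and 3203 CPM without it. The enzyme sum was lower in both libraries with FGF2, without a correction for the trend with base composition given below. Related forms of some enzymes and transporters moved in opposite directions.

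**Figure D1:**
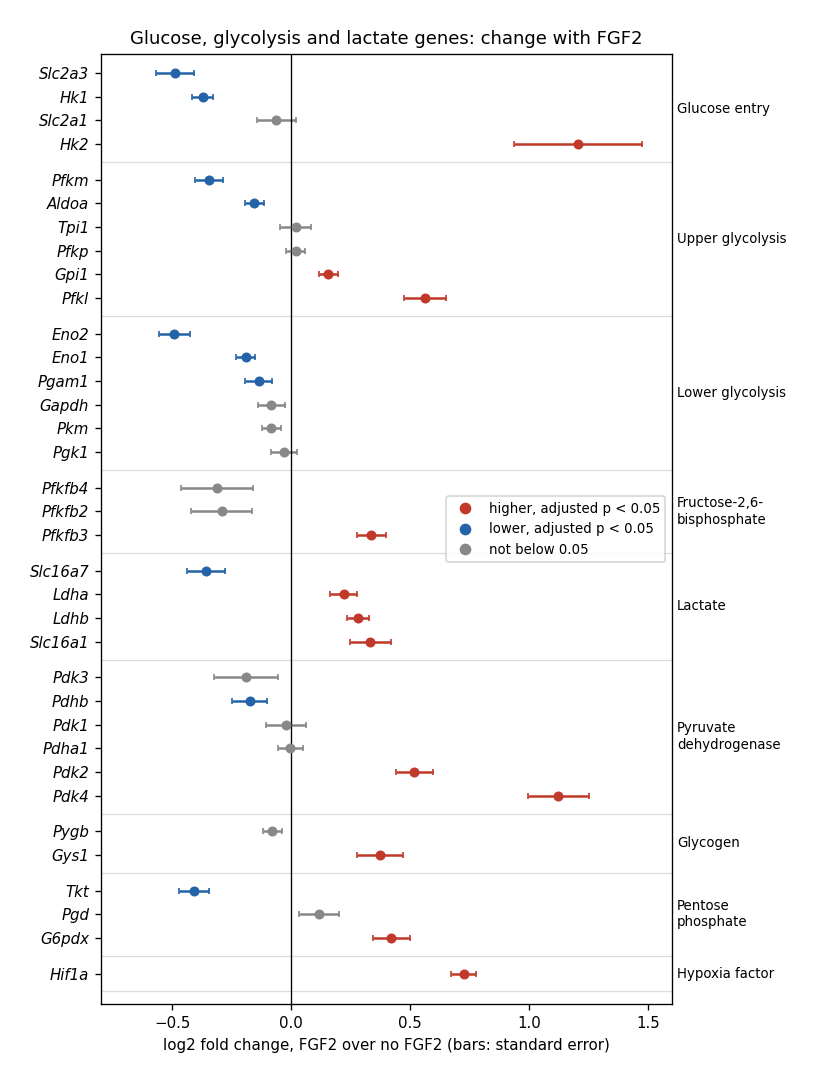
Log2 fold change (FGF2 over no FGF2, x axis) of the 35 tested genes, grouped by role, with bars for the standard error from edgeR and colours for the call at an adjusted p-value of 0.05. The values run from -0.49 for Eno2 to 1.20 for Hk2, and in the lactate group 3 genes lie to the right and 1 to the left of 0.

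The cell type markers in these bulk libraries moved with the treatment as well. The 12 pan-neuronal markers summed to 3733 and 3887 CPM with FGF2 and to 5485 and 5460 CPM without it, with 10 lower, 1 higher and a median log2 fold change of -0.46. Of the 10 interneuron markers 9 were lower, and of the 10 excitatory neuron markers 5 were. The 11 astrocyte markers summed to 13468 and 13276 CPM with FGF2 and to 8637 and 8573 CPM without it, and of the 10 tested 8 were higher and 1 was lower. All 9 tested oligodendrocyte lineage markers out of 10 were higher, and their sum was 1864 and 1873 CPM against 560 and 569 CPM. Microglial markers were scarce, at 14.2 and 17.7 CPM against 6.09 and 7.02 CPM over 8 genes. Endothelial markers were as scarce, at 9.92 and 7.83 CPM against 4.95 and 8.50 CPM over 7 genes, with Cldn5 at 0 in all libraries. Of 8 proliferation genes 7 were lower, with a median log2 fold change of -0.56, and of 7 tested meningeal and mural markers 2 were higher and 2 were lower. The neuronal, astrocyte and oligodendrocyte markers that define cortical cultures were thus present in both groups. In bulk RNA, fewer cells of a type and less RNA per cell cannot be told apart, and the part of these marker changes in the results below was not tested.

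Hif1a (ENSMUSG00000021109, chromosome 12) encodes the oxygen-regulated subunit of the transcription factor HIF-1, which is known to act on many genes of this list. It had 212 and 217 CPM with FGF2 and 132 and 129 CPM without FGF2. Both libraries with FGF2 were far above both without it. The log2 fold change was 0.72 (standard error 0.05, edgeR adjusted p = 6.41e-41), or 1.65-fold, and it lay between 0.70 and 0.74 when any 1 library was left out. HIF-1 protein is controlled mainly by its stability, which RNA levels do not show.

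The core letters that HIF-1 recognises are ACGTG or GCGTG, and they were looked for on both strands in the 250 bases before the first listed start of each gene (RefSeq, build GRCm38.p6, the same assembly as mm10). A window was found for 34 of the 36 genes, and Slc2a3 and Slc16a7 had none. The letters stood in 27 of these 34 windows (79.4%) and in 38.6% of the windows of 27025 genes. They were found for 10 of 12 genes that were higher with FGF2, for 5 of 8 that were lower and for 11 of 13 that did not pass the test. These counts depend on the start that was read, and further listed starts were not searched. Among the lower genes Pfkm has 4 listed starts, Aldoa and Eno1 have 3 each and Hk1 has 2. Among the higher genes Ldha, Pfkfb3 and Pdk2 have 2 each. ACGTG alone was present in 44.1% of the windows of the list and 16.6% of all, GCGTG in 55.9% and 28.2%, and the palindrome CACGTG, which holds ACGTG on both strands, in 17.6% and 6.05%. The windows of the list were also richer in G and C, with a median of 61.4% against 52.0%, and the part of this in the shares was not tested. A GC-rich motif of another kind, GGGCGG, was likewise found in 58.8% of the list and 32.9% of all. The windows of the following genes are shown because they belong to both called genes with the largest rise, to a lactate enzyme that rose, to a neuronal enzyme that fell and to an enzyme that passed no threshold. Capitals mark ACGTG or GCGTG read on either strand, so that CACGT and CACGC are matches on the opposite strand. Ldha (chr7:46845554-46845803, + strand) had 5 matches, of which 4 lie in 2 palindromes, Hk2 (chr6:82774455-82774704, - strand) had 2, Pdk4 (chr6:5496279-5496528, - strand) had 1, Pgk1 (chrX:106186850-106187099, + strand) had 2 and Eno2 (chr6:124769674-124769923, - strand) had 0.
Ldha: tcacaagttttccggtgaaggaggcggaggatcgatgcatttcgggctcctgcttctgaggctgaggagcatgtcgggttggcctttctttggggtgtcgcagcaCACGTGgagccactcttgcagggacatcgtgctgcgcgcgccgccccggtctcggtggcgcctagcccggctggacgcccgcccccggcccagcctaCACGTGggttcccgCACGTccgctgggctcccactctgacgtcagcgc
Hk2: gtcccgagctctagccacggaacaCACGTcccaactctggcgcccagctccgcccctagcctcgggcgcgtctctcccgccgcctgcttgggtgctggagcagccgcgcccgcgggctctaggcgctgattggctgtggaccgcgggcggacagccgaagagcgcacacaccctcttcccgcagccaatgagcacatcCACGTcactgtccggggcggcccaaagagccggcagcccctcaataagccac
Pdk4: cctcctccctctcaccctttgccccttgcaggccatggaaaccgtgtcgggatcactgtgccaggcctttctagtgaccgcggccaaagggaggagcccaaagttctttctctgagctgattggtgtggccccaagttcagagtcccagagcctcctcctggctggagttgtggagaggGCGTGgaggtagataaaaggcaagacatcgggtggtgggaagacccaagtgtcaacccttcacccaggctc
Pgk1: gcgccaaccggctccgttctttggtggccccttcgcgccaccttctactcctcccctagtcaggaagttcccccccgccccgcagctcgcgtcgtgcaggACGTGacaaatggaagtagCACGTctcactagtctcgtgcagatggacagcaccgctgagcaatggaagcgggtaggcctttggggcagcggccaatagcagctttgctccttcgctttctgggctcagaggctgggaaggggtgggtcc
Eno2: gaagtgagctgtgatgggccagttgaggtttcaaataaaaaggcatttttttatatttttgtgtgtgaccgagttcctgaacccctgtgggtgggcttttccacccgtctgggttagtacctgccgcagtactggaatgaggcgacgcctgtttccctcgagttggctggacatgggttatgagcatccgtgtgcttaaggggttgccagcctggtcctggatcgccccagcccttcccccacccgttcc
A match is a description of these letters only, and genes with and without them stood on both sides of the comparison.

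Glucose entry showed a lower neuronal transporter, a lower main hexokinase and a higher second hexokinase. Slc2a3, the high-affinity glucose transporter of neurons, had 51.2 and 54.3 CPM with FGF2 and 75.1 and 73.0 CPM without it. It fell by 0.49 on the log2 scale (standard error 0.08, edgeR adjusted p = 1.44e-08). Slc2a1, the transporter of the blood-brain barrier and of glia, had 60.2 and 57.1 CPM with FGF2 and 62.9 and 59.6 CPM without it. Its groups overlapped, and its log2 fold change was -0.06 with a 95% interval from -0.22 to 0.10 (edgeR adjusted p = 0.59). The log2 ratio of Slc2a3 to Slc2a1 per kb of exon was -1.28 and -1.12 with FGF2 and -0.79 and -0.76 without it. Per kb, the neuronal form was thus the less abundant of the pair in every library and more so with FGF2. Hk1, the hexokinase that predominates in brain, had 274 and 266 CPM with FGF2 and 341 and 357 CPM without it, and fell by 0.37 log2 units (standard error 0.04, edgeR adjusted p = 5.46e-17). Hk2, a hexokinase of muscle and growing cells, had 80 and 61 counts with FGF2 and 43 and 26 counts without it, which is 8.82 and 6.20 CPM against 4.09 and 2.40 CPM. The rise of Hk2 was the largest of the 35 genes tested, 2.31-fold or 1.20 on the log2 scale (standard error 0.27, edgeR adjusted p = 4.57e-05), and it ranged from 0.86 to 1.63 when 1 library was left out. Per kb of exon Hk1 still exceeded Hk2 in all libraries, with means of 31.6 and 1.26 CPM per kb with FGF2 and 40.9 and 0.54 CPM per kb without it.

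The first steps after hexokinase were split within the phosphofructokinase family, which catalyses the committed step of glycolysis. Pfkl, the liver form, had 60.1 and 62.6 CPM with FGF2 and 40.5 and 42.5 CPM without it, and rose by 0.56 log2 units (standard error 0.09, edgeR adjusted p = 1.79e-09). Pfkm, the muscle form, had 114 and 116 CPM with FGF2 and 151 and 142 CPM without it, and fell by 0.35 log2 units (standard error 0.06, edgeR adjusted p = 3.86e-08). Pfkp, the platelet form that is also abundant in brain, had 394 and 378 CPM with FGF2 and 382 and 381 CPM without it, with overlapping groups and a 95% interval of the log2 fold change from -0.06 to 0.10. Of the family the liver form was thus the only one to rise. The log2 ratio of Pfkm to Pfkl per kb was 1.92 and 1.89 with FGF2 and 2.89 and 2.74 without it, a difference of -0.91. On the counting side, 10.2% of the exonic length of Pfkm overlaps Gm26513 on the same strand. Gpi1, which isomerises the first hexose phosphate, had 402 and 379 CPM with FGF2 and 355 and 345 CPM without it, and rose by 0.16 log2 units (edgeR adjusted p = 4.63e-04). This call was lost without replicate 2 of the group without FGF2, where the log2 fold change was 0.13 (adjusted p = 0.067). Aldoa, the aldolase of most tissues, had 387 and 390 CPM with FGF2 and 430 and 435 CPM without it, and fell by 0.15 log2 units (standard error 0.04, edgeR adjusted p = 3.79e-04). The second identifier with the Aldoa symbol, at chr7:126800790-126809108, had 22 to 34 counts per library. Its groups overlapped, and it stood at 0.23 on the log2 scale (edgeR adjusted p = 0.668). Tpi1, triosephosphate isomerase, had 97.6 and 106 CPM with FGF2 and 103 and 98.2 CPM without it, and its interval ran from -0.11 to 0.15.

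Aldoc, the aldolase of astrocytes and Purkinje cells, is not on the list, but it forms a pair with Aldoa. It had 579 and 561 CPM with FGF2 and 430.5 and 430.2 CPM without it, a rise of 0.40 log2 units (standard error 0.04, edgeR adjusted p = 1.98e-25). Per kb of exon, Aldoa had 149 CPM and Aldoc 132 CPM without FGF2, and the order was turned round with FGF2, at 133 CPM for Aldoa and 175 CPM for Aldoc. The log2 ratio of Aldoa to Aldoc was 0.16 and 0.18 without FGF2 and -0.42 and -0.36 with it. Per kb of exon, this was the only one of the family pairs in which the more abundant form changed between the groups. In CPM not scaled for length, Aldoa and Aldoc were nearly equal without FGF2, with means of 432.3 and 430.3 CPM. Their order without FGF2 thus rests on the length used. In such CPM the group means of other pairs changed order as well. Slc2a3 and Slc2a1 had 74.0 and 61.2 CPM without FGF2 and 52.8 and 58.7 CPM with it. Slc16a7 and Slc16a1 had 72.3 and 49.1 CPM without FGF2 and 56.4 and 61.7 CPM with it.

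From Gapdh to Pkm, 3 of 6 genes fell and the median log2 fold change was -0.11. The number of genes that rose was 0 with edgeR, DESeq2 and limma-voom, also at an unadjusted p-value threshold of 0.05 in edgeR. Over all tested genes 20.7% rose and 19.9% fell at the adjusted threshold of edgeR, and 6 genes are too few to set against these shares. Eno2, known as neuron-specific enolase, changed most among them, with 84.3 and 82.8 CPM with FGF2 and 118 and 117 CPM without it. It fell by 0.49 log2 units (standard error 0.07, edgeR adjusted p = 1.89e-12), and its groups stood clearly apart. Eno1, the enolase of most cells and of glia, had 352 and 374 CPM with FGF2 and 422 and 408 CPM without it, and fell by 0.19 log2 units (standard error 0.04, edgeR adjusted p = 9.82e-06). The log2 ratio of Eno2 to Eno1 per kb was -1.87 and -1.98 with FGF2 and -1.65 and -1.60 without it. Pgam1, phosphoglycerate mutase, had 140 and 147 CPM with FGF2 and 155 and 160.4 CPM without it, and fell by 0.14 log2 units (edgeR adjusted p = 0.0357). This call was not kept by DESeq2 (adjusted p = 0.215) or with no expression filter (0.0653), with offsets for GC content and length (0.0925, and 0.109 with the replicate block as well), or when replicate 1 with FGF2 or either replicate without FGF2 was left out. Pkm, pyruvate kinase, had 408 and 398 CPM with FGF2 and 428 and 426 CPM without it, where the log2 fold change of -0.08 did not pass (edgeR adjusted p = 0.0791). Pgk1, phosphoglycerate kinase, had 149 and 145 CPM with FGF2 and 155 and 145 CPM without it, with an interval from -0.14 to 0.08.

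Gapdh, often taken as a reference gene, had 146 and 133 CPM with FGF2 and 151 and 144 CPM without it. Its groups overlapped, and the log2 fold change of -0.08 had a 95% interval from -0.19 to 0.03 (edgeR adjusted p = 0.245). Its counts are uncertain, because 141 other genes match 100 bases or more of its longest transcript with an identity of 95% or higher, and these matches cover 36.1% of it. Over Gapdh and these copies together, the copies held 57.8% to 61.0% of the counts, and the log2 ratio of the group means was -0.04 with the copies and -0.08 without them. A further 8 genes of the list, namely Gpi1, Pgk1, Pgam1, Eno1, Pkm, Pfkfb2, Ldha and Ldhb, have such matches over at least 25% of their longest transcript. The matching genes held at most 6.39% of the summed counts, and adding them moved the log2 ratio most for Pfkfb2, from -0.29 to -0.23. Not all of these matches are separate copies. Gm29427 overlaps 17.4% of the exonic length of Pfkfb2 on the same strand, and Gm49759 overlaps 15.3% of that of Pkm. Reads of low mapping quality had been removed by the authors, so that reads shared by copies may be missing from all of them.

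**Figure D2:**
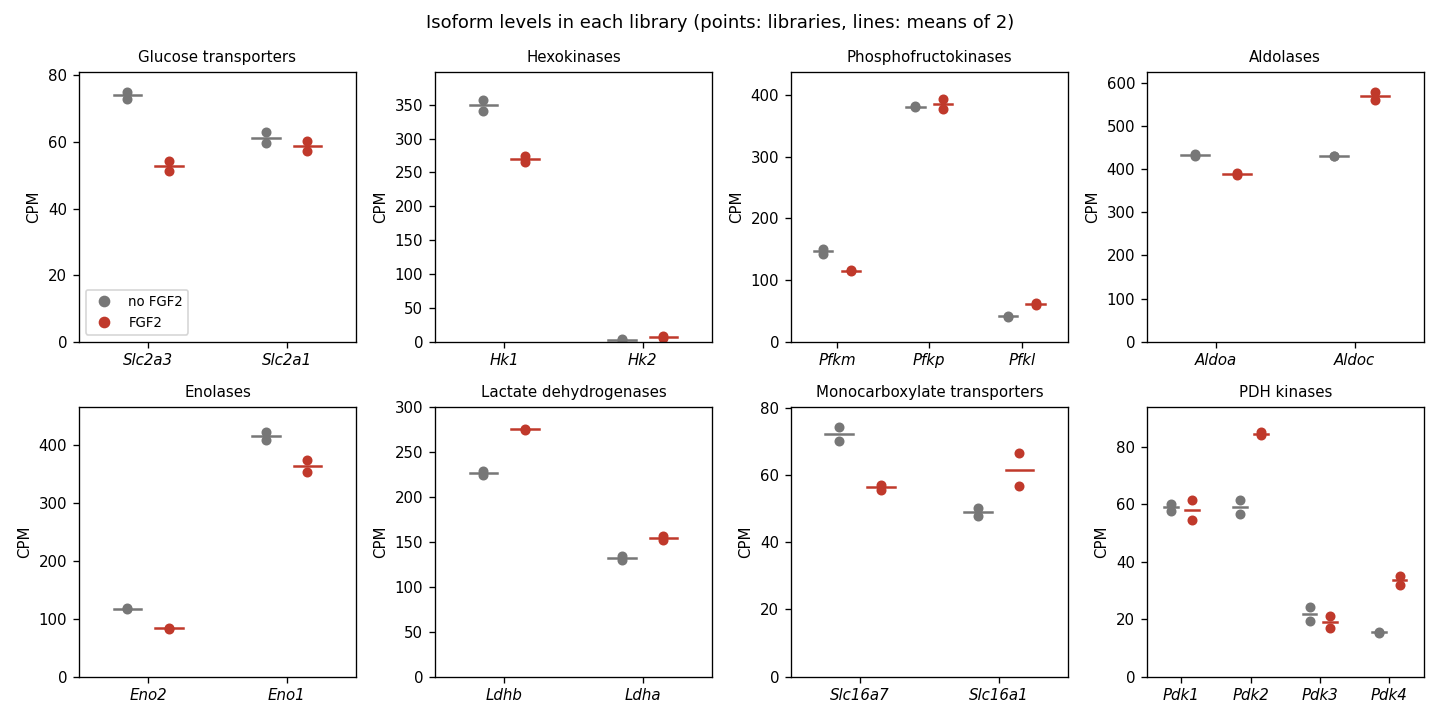
Level in CPM (y axis, starting at 0) of the forms of 8 families in each library, with points for libraries and lines for the mean of 2. In the pairs of glucose transporters and monocarboxylate transporters the neuronal form (Slc2a3, Slc16a7) is lower in both libraries with FGF2, and Aldoc, Ldha, Ldhb, Pdk2 and Pdk4 are higher. Heights of different genes are not scaled for length.

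Of the 3 enzymes on the list that set the level of the bisphosphate activating phosphofructokinase, 1 rose and the others did not pass the test. Pfkfb3, the form with the strongest kinase activity and a known difference between astrocytes and neurons, had 136 and 139 CPM with FGF2 and 113 and 106 CPM without it. It rose by 0.34 log2 units (standard error 0.06, edgeR adjusted p = 2.18e-07). Pfkfb2 had 20.5 and 20.8 CPM with FGF2 and 27.5 and 23.2 CPM without it, at -0.29 on the log2 scale (edgeR adjusted p = 0.0525). Pfkfb4 had 14.7 and 13.8 CPM with FGF2 and 17.9 and 17.5 CPM without it, at -0.31 on the log2 scale (edgeR adjusted p = 0.0859). For both the libraries with FGF2 were below the others, and neither passed the threshold. The call of Pfkfb2 depended on scaling, with adjusted p-values of 0.0326 with the upper quartile and 0.0381 with the total count in edgeR.

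Both lactate dehydrogenases rose. Ldha, the subunit that favours the making of lactate, had 152 and 156 CPM with FGF2 and 135 and 130.2 CPM without it, a rise of 0.22 log2 units (standard error 0.06, edgeR adjusted p = 4.63e-04). Ldhb, the subunit that favours the use of lactate, had 276 and 275 CPM with FGF2 and 225 and 229 CPM without it, a rise of 0.28 log2 units (standard error 0.05, edgeR adjusted p = 6.20e-09). Per kb of exon Ldhb exceeded Ldha in all libraries, with means of 176 and 46.6 CPM per kb with FGF2. The log2 ratio of Ldhb to Ldha was 1.94 and 1.89 with FGF2 and 1.82 and 1.89 without it, so that the pair moved nearly in step, with a difference of 0.06.

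The monocarboxylate transporters, which carry lactate and pyruvate across the membrane, went in opposite directions. Slc16a7, which encodes the neuronal high-affinity transporter MCT2, had 57.2 and 55.6 CPM with FGF2 and 70.2 and 74.4 CPM without it. It fell by 0.36 log2 units (standard error 0.08, edgeR adjusted p = 3.84e-05). Slc16a1, which encodes MCT1 of endothelium, astrocytes and oligodendrocytes, had 56.8 and 66.6 CPM with FGF2 and 50.3 and 47.8 CPM without it. It rose by 0.33 log2 units (standard error 0.09, edgeR adjusted p = 4.16e-04), but the rise was 0.21 log2 units (adjusted p = 0.106) without replicate 2 with FGF2, and DESeq2 gave an adjusted p of 0.0556. The log2 ratio of Slc16a7 to Slc16a1 per kb was -1.41 and -1.68 with FGF2 and -0.94 and -0.78 without it. Slc16a3, which encodes the low-affinity exporter MCT4, was close to the limit of detection and did not pass the expression filter, with 18 and 4 counts with FGF2 and 5 and 0 counts without it. Its groups overlapped and a single library held most of its counts. In edgeR without the filter it was called higher, with an adjusted p of 0.034, and it was also called without replicate 2 with FGF2 (adjusted p = 0.00622) and without replicate 1 of the group without FGF2 (adjusted p = 0.00876). It was not called without replicate 2 of the group without FGF2 (adjusted p = 0.347), and DESeq2 gave no adjusted p for it.

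Across the families, the ratio of the first-named form to its partner was lower with FGF2 for the glucose transporters (-0.43 for Slc2a3 over Slc2a1), hexokinases (-1.58 for Hk1 over Hk2), phosphofructokinases (-0.91 for Pfkm and -0.54 for Pfkp over Pfkl), aldolases (-0.56 for Aldoa over Aldoc), enolases (-0.30 for Eno2 over Eno1) and monocarboxylate transporters (-0.68 for Slc16a7 over Slc16a1), all as differences of mean log2 ratios. The ratio of Ldhb to Ldha was higher by 0.06. In each pair both libraries with FGF2 lay on the same side of both libraries without it, though only narrowly for Ldhb over Ldha. A two-sided exact permutation test over libraries gave p = 0.333 for each pair, which is the lowest value that 2 against 2 can give, so that no pair can pass a threshold of 0.05 in this design. The hexokinase difference rests on the low counts of Hk2, and the ratio of Slc16a7 to Slc16a3 is not read because of the counts given above. The shift in these pairs went together with the lower sum of pan-neuronal markers and the higher sums of astrocyte and oligodendrocyte markers, and whether the forms changed within a cell type was not tested.

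**Figure D3:**
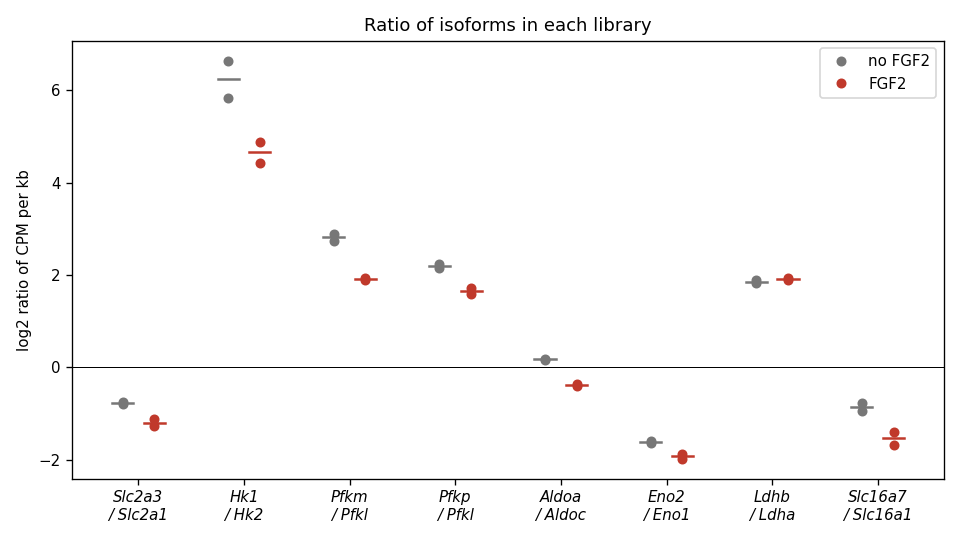
Log2 ratio of CPM per kb between the forms of each family (y axis) in each library, grey without FGF2 and red with FGF2, with lines for the mean of 2 libraries. Of 8 pairs, 7 lie lower with FGF2, with differences from -1.58 to -0.30, the Aldoa to Aldoc ratio crosses 0, and the Ldhb to Ldha ratio differs by 0.06.

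At the entry of pyruvate into the mitochondrion, 2 of the 4 inhibitory kinases of pyruvate dehydrogenase rose, and of the subunits of the enzyme itself 1 of 2 fell slightly. Pdk4, the kinase linked to fasting and fat use, had 32.0 and 35.2 CPM with FGF2 and 15.6 and 15.2 CPM without it. It was 2.18-fold higher, a log2 fold change of 1.12 (standard error 0.13, edgeR adjusted p = 1.65e-17) that stayed between 1.05 and 1.19 when 1 library was left out. Pdk2, the most widespread kinase, had 85.1 and 84.2 CPM with FGF2 and 56.6 and 61.5 CPM without it, and rose by 0.52 log2 units (standard error 0.08, edgeR adjusted p = 1.50e-10). Pdk1, the kinase known as a target of HIF-1, had 61.6 and 54.7 CPM with FGF2 and 60.2 and 57.6 CPM without it. Its groups overlapped, and its log2 fold change was -0.02 with a 95% interval from -0.18 to 0.14. Pdk3 had 17.1 and 21.05 CPM with FGF2 and 24.2 and 19.5 CPM without it, with an interval from -0.45 to 0.07. Pdha1, the catalytic alpha subunit, had 166 and 168 CPM with FGF2 and 172 and 164 CPM without it, with an interval from -0.11 to 0.10. Pdhb, the beta subunit, had 72.0 and 75.6 CPM with FGF2 and 85.5 and 81.1 CPM without it, a fall by 0.17 log2 units that barely passed (edgeR adjusted p = 0.0464). DESeq2 gave 0.265 for it and limma-voom 0.0568, and its call was lost without replicate 1 with FGF2 or either replicate without FGF2.

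Glycogen and the pentose phosphate pathway branch off from the hexose phosphates. Gys1, glycogen synthase, had 49.5 and 46.0 CPM with FGF2 and 36.9 and 36.7 CPM without it, and rose by 0.37 log2 units (standard error 0.10, edgeR adjusted p = 4.70e-04). Pygb, the brain form of glycogen phosphorylase, had 344 and 337 CPM with FGF2 and 354 and 365 CPM without it, at -0.08 on the log2 scale (edgeR adjusted p = 0.116). G6pdx, which opens the pentose phosphate pathway and yields NADPH, had 73.9 and 80.3 CPM with FGF2 and 55.9 and 59.5 CPM without it. It rose by 0.42 log2 units (standard error 0.08, edgeR adjusted p = 6.27e-07). Pgd, the next dehydrogenase, had 58.0 and 58.1 CPM with FGF2 and 52.8 and 54.2 CPM without it, at 0.12 on the log2 scale (edgeR adjusted p = 0.288). Tkt, transketolase of the non-oxidative branch, had 96.4 and 94.5 CPM with FGF2 and 130.0 and 123 CPM without it, and fell by 0.41 log2 units (standard error 0.06, edgeR adjusted p = 1.23e-09). The first enzyme of the pathway was thus higher and transketolase lower, with no overlap between the groups for either.

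Several of these genes lie close together. Of the 36, 7 are on chromosome 6 and 4 on chromosome X. On chromosome 6, Eno2 and Tpi1 are 40.9 kb apart and Tpi1 and Gapdh 347.4 kb apart, and of these neighbours Eno2 fell while the other two passed no threshold.

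The remaining genes of these pathways were taken from lists that add 96 genes, of which 80 were tested, 19 were higher, 17 were lower and the median log2 fold change was -0.0047. Over all tested genes 20.7% were higher and 19.9% lower, which is close to the shares of these 80 genes. Glycogen metabolism had 5 higher and 3 lower among 18 tested genes, against 2 higher and 1 lower with DESeq2. The higher ones were the phosphorylase kinase subunits Phkg1 (0.70), Phka1 (0.42) and Phkb (0.36), the branching enzyme Gbe1 (0.42) and the phosphoglucomutase Pgm2 (0.40), all as log2 fold changes. Epm2a, the glycogen phosphatase laforin, fell by 0.46 log2 units, and so did its partner Nhlrc1, by 1.22, and the muscle phosphorylase Pygm, by 1.44, from low levels.

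Pyruvate handling had 2 higher and 4 lower among 14 tested genes, against 1 higher and 2 lower with DESeq2. Pdp1, the phosphatase that reactivates pyruvate dehydrogenase, rose by 0.29 log2 units and Pcx, the pyruvate carboxylase of astrocytes, rose by 0.24 log2 units. Dlat (-0.39) and Pdhx (-0.30), further subunits of the pyruvate dehydrogenase complex, fell, as did Mpc1 (-0.34) of the mitochondrial pyruvate carrier and Gpd1l (-0.29). Among transporters Slc2a12 rose by 0.57 log2 units and Slc2a13, a myo-inositol carrier, fell by 0.68 log2 units, with 10 tested. A further monocarboxylate transporter, Slc16a4, fell by 0.83 log2 units from a low level. The number of transporters called higher was 0 with DESeq2 and with limma-voom, and each called 1 lower. In the rest of glycolysis Bpgm, bisphosphoglycerate mutase, and Tigar, a fructose bisphosphatase, fell by 0.26 log2 units and 0.67, and the rare hexokinase Hkdc1 fell by 1.14 log2 units. With DESeq2, 0 of these 3 passed the adjusted threshold. In the rest of the pentose phosphate pathway 0 of 6 tested genes passed the adjusted threshold of edgeR, DESeq2 or limma-voom, and 1 gene, Rpe, had an unadjusted p-value below 0.05 in edgeR.

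Genes known as targets of HIF-1 outside glycolysis were measured as well. Of 17 tested, 9 were higher and 4 were lower (6 and 2 with DESeq2, which called 23.2% of 17279 genes, 12% higher and 11.2% lower), where 20.7% and 19.9% of all tested genes were, and the median log2 fold change was 0.28. Ndrg1, a stress-response gene that oligodendrocytes also express, had 79.3 and 75.2 CPM with FGF2 and 35.8 and 35.1 CPM without it, a rise of 1.12 log2 units. The histone demethylase Kdm3a rose by 0.85 log2 units, the transcription factors Bhlhe40 and Mxi1 by 0.76 and 0.57, and the mitophagy receptor Bnip3l by 0.44. In the opposite direction, the mitochondrial gene Higd1a fell by 0.79 log2 units, the inhibitor of growth signalling Ddit4 by 0.46, the adenylate kinase Ak4 by 0.46 and the carbonic anhydrase Car9 by 1.41. Of 8 genes of oxygen sensing, Egln3, a prolyl hydroxylase that marks HIF for degradation, rose by 0.73 log2 units and Arnt, the partner of Hif1a, by 0.25. Egln3 stands on both lists and is also counted among the 17 targets and the 9 of them that were higher. None of the 8 was lower, which made a count of 0 with edgeR at the adjusted and the unadjusted threshold and with DESeq2 and limma-voom. Over all tested genes 19.9% were lower with edgeR and 11.2% with DESeq2, and a list of 8 is too short to set against these shares. Among the genes of the list known as HIF-1 targets, Ldha, Hk2 and Pfkfb3 rose, and Pgk1, Slc2a1, Pdk1 and Pfkfb4 passed no threshold. For Pfkfb4 both libraries with FGF2 were below both without it (log2 fold change -0.31, edgeR adjusted p = 0.0859). Eno1 and Aldoa fell, but both calls were lost with offsets for GC content and length, as given below. Not every HIF-1 target on the list is named here, so these genes do not show how such targets moved as a set. With those offsets 12 genes of the list were higher and 7 lower. Slc2a3 was among the lower ones (log2 fold change -0.44, edgeR adjusted p = 2.58e-07).

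**Figure D4:**
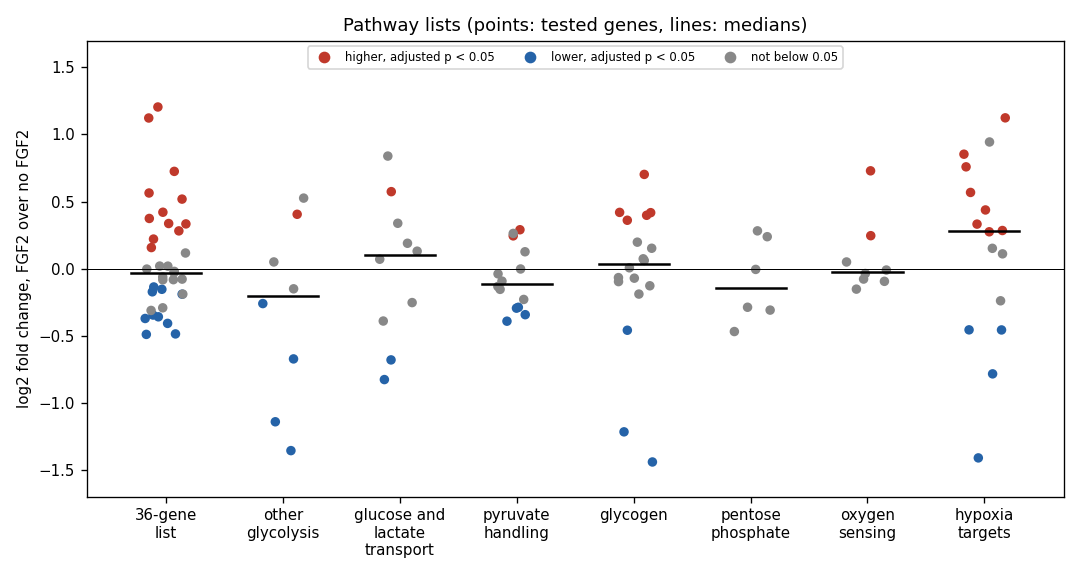
Log2 fold change (FGF2 over no FGF2, y axis) of each tested gene of the 36-gene list and of 7 further lists, with lines for medians and colours for the call at an adjusted p-value of 0.05. The medians lie between -0.21 for other glycolysis and 0.28 for hypoxia targets, and each list with called genes other than oxygen sensing has them on both sides of 0. Egln3, which stands on the lists of oxygen sensing and of hypoxia targets, is plotted with oxygen sensing only.

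The log2 fold changes showed a small trend with base composition, and its cause was not tested. Over all tested genes the median log2 fold change was 0.10 for the genes with a GC content up to 44.1% and -0.07 for those above 53.8%, which are groups of 4283 genes each. Of the 35 tested genes of the list, 13 lay in the GC-rich group and 3 in the GC-poor group. When each library was corrected for GC content and length by offsets in edgeR, which called 40.7% of all genes (22.3% higher and 18.4% lower), Eno1 was at -0.08 (edgeR adjusted p = 0.079), Aldoa at -0.09 (edgeR adjusted p = 0.0509), and Pgam1 at -0.11 (edgeR adjusted p = 0.0925), so that these 3 calls were lost and 7 genes of the list stayed lower. Slc16a7 in contrast moved from -0.36 to -0.50, and Pfkl from 0.56 to 0.68. The larger changes kept their direction and call, among them those of Hk2, Pdk4, Hif1a, Pdk2, Slc2a3, Eno2, Hk1 and Tkt.

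**Figure D5:**
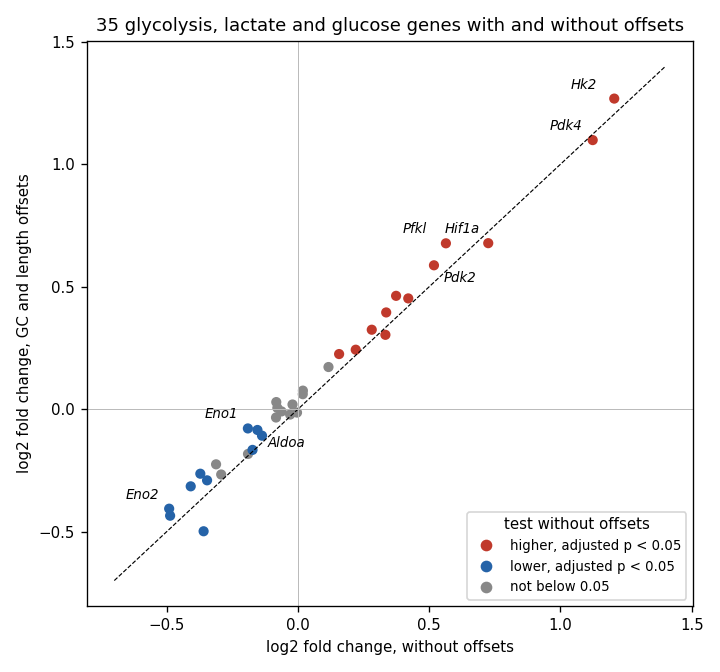
Log2 fold change of the 35 tested genes without (x axis) and with (y axis) the offsets for base composition and length, with the line of equality dashed and colours for the call without offsets. Most genes lie a little above the line, Eno1 and Aldoa lie nearer to 0 with the offsets, and Hk2, Pdk4 and Hif1a stay far from 0 on both axes.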

How the data were processed

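Per the labels, total RNA of the cultures was sequenced as paired reads. The authors mapped the reads to mm10, kept those with a Samtools mapping quality of at least 20 and deposited raw counts per gene, which were not normalized. The submitters' processing notes name HISAT2 2.1.0 and HTSeq 0.11.2. The annotation release and the strand setting are not given in the sources used here. Of the 55421 gene identifiers, 55240 matched GENCODE M21, and 5 tallies that name no gene were left out of totals and tests. Those tallies held 43.2% to 45.9% of the pairs as outside any feature and 1.47% to 1.76% as ambiguous.

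The main test was quasi-likelihood in edgeR (version 4.0.16, R 4.3.3) on the counts, with TMM factors between 0.993 and 1.01, its expression filter by group, robust estimation and Benjamini-Hochberg adjustment over 17144 genes. The common biological coefficient of variation was 3.90%. The 95% intervals of fold changes are unadjusted. The study itself used DESeq2, which was run as an alternative (1.42.0), as were limma-voom (3.58.1), RLE, upper quartile and total count scaling, no filter, at least 10 counts in every library, a threshold of 0.01, the replicate number as a block, lowess offsets for GC content and length (span 0.3) with and without that block, and each library left out in turn. Isoform ratios used CPM per kb of exonic length with a prior count of 1, or 0.1 as the alternative, and a two-sided exact permutation test. The exonic length joins all annotated exons of a gene and is not the length of the transcript expressed. Copies were searched for with BLAST 2.17.0. The fits were also run on simulated counts, drawn for independent libraries from the means and dispersions fitted to these data. Such counts cannot show whether the replicates are separate cultures.

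Replicates differed by more than sampling noise, with a chi-square per degree of freedom of 2.28 with FGF2 and 1.76 without, and were kept apart. The methods mention technical replicates for samples other than GW11 and GW20 and do not name the mouse cultures. The 36 genes and the other lists were chosen with earlier results of these data known. All 36 genes are named. Of the other pathway genes, those past the threshold with a mean of at least 5 CPM are named, at most 5 per direction and list by fold change. Nhlrc1, Pygm, Hkdc1, Slc16a4, Car9 and Rpe were named after their values were seen. A result for 1 gene of the lists is not reported here.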

Additional observations from a re-analysis of the deposited data

How the results depend on the processing

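Of the 22 genes of the list called by edgeR, 16 kept their direction and their call under all alternatives, 10 of them higher and 6 lower with FGF2. The call was lost under at least 1 alternative for Aldoa, Eno1, Gpi1, Pdhb, Pgam1 and Slc16a1, and 0 of the 22 changed sign. The number of genes called over the whole table was 4007 with DESeq2 in place of 6949. On the list DESeq2 called 11 higher and 8 lower. The replicate number as a block together with GC and length offsets left 6 lower, and without these offsets the block left 12 higher and 9 lower, with Pdhb at an adjusted p of 0.0562. The samples with the same number did not deviate together (correlation 0.0040). This value cannot show whether they share animals, a culture or a batch. Of the other pathway genes, DESeq2 called 10 higher and 6 lower in place of 19 and 17, a threshold of 0.01 left 11 lower, and leaving out 1 library gave 12 to 19 higher and 9 to 15 lower. The lowest counts came without replicate 2 of either group for the higher genes (12 each) and without replicate 1 or 2 of the group without FGF2 for the lower genes (9 and 10). The cause was not tested, except that fewer libraries enter these fits. Log2 fold changes that passed no threshold turned sign for Pfkp (-0.0074 with the upper quartile, and -0.0155 to 0.0461 with a library left out), Tpi1 (-0.0081 with the upper quartile, and -0.0487 to 0.0735 with a library left out), Pgk1 (-0.0818 to 0.0146 with a library left out), Pkm (0.0289 with offsets, with or without the block), Pygb (0.0050 with offsets and 0.0051 with the block as well), Pdk1 (0.0190 with offsets, 0.0188 with the block as well, and -0.1113 to 0.0613 with a library left out) and Pdha1 (0.0008 without a filter, and -0.0390 to 0.0235 with a library left out). Gapdh, Pfkfb2, Pkm and Pygb passed the threshold under at least 1 alternative, and so did Slc16a3, which the filter had left out, so that 13 genes of the list were higher without a filter and without replicate 1 of the group without FGF2. No isoform ratio changed sign under another prior count, another scaling, the block or a library left out. With 2 libraries per group the permutation test of a ratio cannot pass 0.05, and Hk2 and Slc16a3 are limited by their counts.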
